A study of Homo sapiens with 6 samples.

Results

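Polycomb repressive complex 2 (PRC2) was examined through 10 genes, taken by symbol from the 46427 genes of the expression table: EZH1, EZH2, SUZ12, EED, RBBP4, RBBP7, MTF2, PHF19, JARID2, and AEBP2. Total RNA was sequenced from H460, H1299, and A549, 3 established non-small cell lung cancer (NSCLC) cell lines, with 1 control and 1 si-MALAT1 library per cell line. The si-MALAT1 cells were transiently transfected with a small interfering RNA against MALAT1, a nuclear long noncoding RNA. The labels call the controls untreated, whereas by the methods there were negative controls as well as si-Control cells, and the sequenced kind is not stated, so an effect of transfection cannot be told apart from one of lower MALAT1. Each condition of a cell line was 1 library, and a p-value across the 3 cell lines measures only the spread between them.

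PRC2 places methyl groups on lysine 27 of histone H3, a mark of repressed genes. EZH1 or EZH2 is the methyltransferase, SUZ12 is the scaffold, EED binds the finished mark and activates the enzyme, and RBBP4 or RBBP7 binds histones. MTF2 and PHF19, which are Polycomb-like proteins, define the form called PRC2.1, and JARID2 and AEBP2 define the form called PRC2.2. MALAT1 has been reported to bind PRC2, and EZH2 is often abundant in dividing tumor cells.

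MALAT1 was lower in each si-MALAT1 library than in the control of its cell line. H460 had 231045 reads of it in the control and 43858 after si-MALAT1, H1299 had 407551 and 47935, and A549 had 93747 and 14447. The changes were -2.32, -2.96, and -2.84 on the log2 scale. These fold changes were taken on the log2(scaled count + 1) scale, with read counts scaled by size factors (RLE). The libraries held 42506818 to 68515992 counted reads. The epithelial keratins KRT8 (123 to 1778 TPM) and KRT18 (236 to 2918 TPM) were abundant in all 6 libraries, whereas EPCAM (0.252 to 8.04 TPM) and KRT19 (0.230 to 550 TPM) were near 0 in some. Of 6 markers of other cell types, PTPRC and CD3E had no reads in any library, PECAM1 had at most 8 reads, and the summed level of the 6 was 26.1 to 36.3 TPM in the controls and 20.01 to 47.90 TPM in the si-MALAT1 libraries. CD68 was at 9.40 to 47.3 TPM, COL3A1 at 0 to 15.5 TPM, and COL1A1 at 0.109 to 2.03 TPM, the last being higher after si-MALAT1 in the 3 cell lines (DESeq2 adjusted p = 0.00327, edgeR adjusted p = 0.136). The part of these markers in the PRC2 values was not tested.

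All 10 PRC2 genes had reads in all 6 libraries and passed the filter on low counts. RBBP4 was lower and JARID2 was higher in every si-MALAT1 library, and each was past a 1.5-fold change in H1299 and A549 but not in H460. MTF2 was also higher, and SUZ12 and EZH1 were lower, in the 3 cell lines, by less than 1.5-fold. EZH2, RBBP7, PHF19, and AEBP2 moved in opposite directions in different cell lines, and EED was lower in H1299 and near 0 in the others, where its sign depended on the scaling. Across the 3 cell lines, edgeR's paired quasi-likelihood test called 0 of the 10 genes at a Benjamini-Hochberg adjusted p under 0.05, where it called 0.00523% of 19122 genes, namely MALAT1 alone (adjusted p = 0.0381). At an unadjusted p under 0.05 it gave 4 of the 10 genes (RBBP4, JARID2, MTF2, and SUZ12) and 15.0% of all genes tested. DESeq2, which was run as an alternative, called 3 of the 10 genes (RBBP4, JARID2, and MTF2), against 9.33% of the 12449 genes it adjusted.

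**Figure D1:**
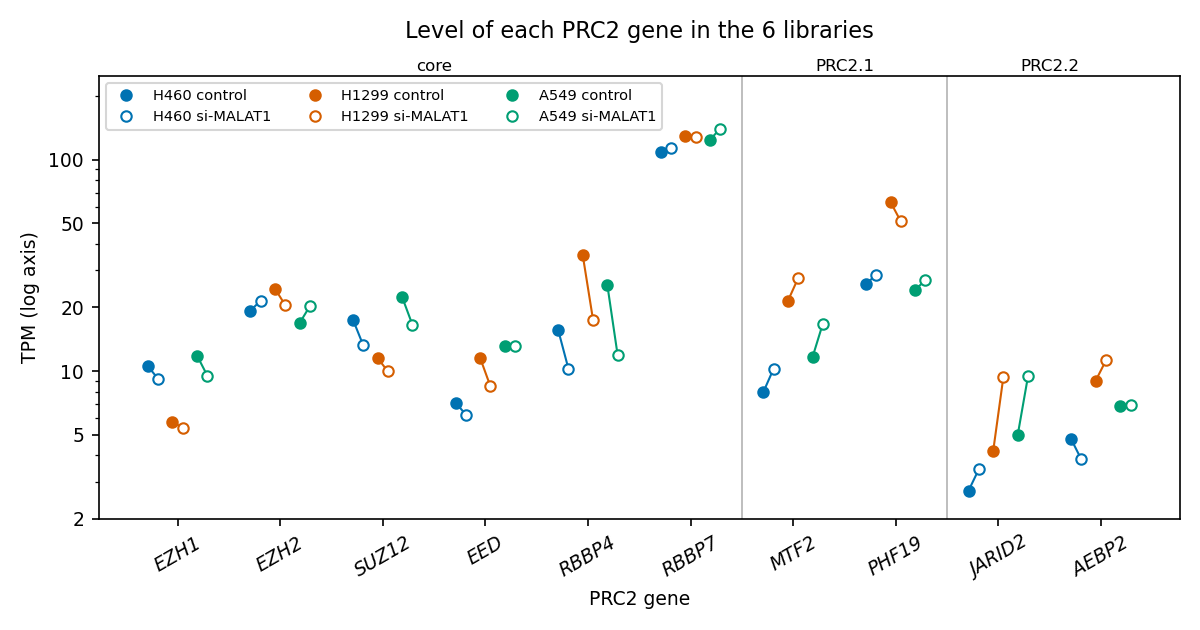
Level of each PRC2 gene in TPM (log axis) in the 6 libraries, with filled points for controls, open points for si-MALAT1 libraries, and a line joining the 2 libraries of a cell line. RBBP7 was highest in every library (108.9 to 140.6 TPM), the lines of RBBP4 slope down in the 3 cell lines, and those of JARID2 and MTF2 slope up.

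The levels of different genes were compared as TPM, a share of all transcripts that is scaled for transcript length and library depth. RBBP7 had the highest level of the 10 genes in each library, from 108.9 to 140.6 TPM. PHF19 was the next in 5 of 6 libraries, at 25.8 to 63.1 TPM, and was behind RBBP4 in the A549 control, at 24.2 TPM. At the low end, JARID2 had the lowest level in 4 libraries, among them the 3 controls, and EZH1 and AEBP2 were lowest in the H1299 and A549 si-MALAT1 libraries. The highest level exceeded the lowest by 20.4-fold to 40.1-fold within a library. RBBP7 and EZH2 varied least over the libraries, by 1.29-fold and 1.45-fold from the lowest to the highest, and JARID2, MTF2, and RBBP4 varied most, by 3.48-fold, 3.47-fold, and 3.44-fold.

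The catalytic subunits showed no shared direction. EZH2 had scaled counts of 3680 in the control then 4495 in the si-MALAT1 library of H460, 4617 then 3824 in H1299, and 2686 then 3346 in A549 (the order control, then si-MALAT1, holds for all such pairs). It was therefore higher after si-MALAT1 in H460 (log2 0.29, 95% interval 0.23 to 0.35) and A549 (0.32, 0.23 to 0.40), and lower in H1299 (-0.27, -0.33 to -0.22). These exact Clopper-Pearson intervals come from the split of reads between 2 libraries and cover counting error only. The adjusted p of EZH2 across the cell lines was 0.820 by edgeR and 0.804 by DESeq2. EZH1, the other methyltransferase, which is known to persist in cells that no longer divide, had scaled counts of 2629 then 2498 in H460, 1214 then 1086 in H1299, and 2489 then 2016 in A549. These are log2 changes of -0.07, -0.16, and -0.30, and the interval of the H460 value included 0 (-0.15 to 0.0039). The mean was -0.18 ± 0.12 (SD, n = 3), with an edgeR adjusted p of 0.466.

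In TPM, EZH2 exceeded EZH1 in every library. The ratio of EZH2 to EZH1 was 1.83 in the control and 2.34 in the si-MALAT1 library of H460, 4.27 then 3.81 in H1299, and 1.43 then 2.13 in A549. The H1299 control had the most EZH2 relative to EZH1, and the ratio was lower after si-MALAT1 only in that cell line. The mean log2 change of the ratio was 0.26 ± 0.38 (SD, n = 3), with a two-sided exact sign-flip p of 0.5. The order of the pair depended on the length used, since reads per kilobase of merged exon gave ratios of 0.965 in the H460 control and 0.744 in the A549 control and kept EZH2 above EZH1 in the other 4 libraries. EZH2 has 35 annotated transcripts and 6.78 kb of merged exon, against 9 transcripts and 4.67 kb for EZH1.

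SUZ12, the scaffold on which the complex assembles, was lower in each si-MALAT1 library. Its scaled counts were 4179 then 3453 in H460, 2341 then 1908 in H1299, and 4496 then 3419 in A549. The log2 fold changes of these scaled counts, -0.28, -0.30, and -0.40, lay close together, with a mean of -0.32 ± 0.06 (SD, n = 3). They were less even on the log2(TPM + 1) scale, at -0.38 for H460, -0.19 for H1299, and -0.41 for A549. The edgeR adjusted p was 0.216 and that of DESeq2 was 0.0593, so SUZ12 passed neither test. EED, the subunit that recognizes methylated lysine 27, had scaled counts of 988 then 990 in H460, 1406 then 1102 in H1299, and 1623 then 1628 in A549. Only in H1299 did its interval lie away from 0 (log2 -0.35, -0.46 to -0.25). The edgeR adjusted p of EED was 0.682.

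RBBP4 had the most negative change of the 10 genes. It encodes a histone-binding protein that PRC2 shares with the NuRD and SIN3 deacetylase complexes and with the histone chaperone CAF-1. Its scaled counts were 6652 then 4792 in H460, 12709 then 6026 in H1299, and 9228 then 4345 in A549. In log2 units it changed by -0.47 (-0.53 to -0.42), -1.08 (-1.12 to -1.04), and -1.09 (-1.14 to -1.03), so that the H1299 and A549 si-MALAT1 libraries held 0.474 and 0.471 of the control level. In these cell lines 3.11% and 3.75% of the 17834 genes with reads in all 6 libraries were as low or lower, and in H460 13.6% were. The mean of -0.88 ± 0.35 (SD, n = 3) had an edgeR adjusted p of 0.0994 and a DESeq2 adjusted p of 3.42e-05. The edgeR adjusted p was 0.0371 without the H460 libraries, 0.178 without H1299, and 0.737 without A549.

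RBBP7, the paralog of RBBP4, stayed closer to its control level. Its scaled counts were 13396 then 15341 in H460, 13557 then 12875 in H1299, and 13063 then 14904 in A549. Its changes, 0.20, -0.07, and 0.19 on the log2 scale, were small, and the edgeR adjusted p was 0.783. The ratio of RBBP4 to RBBP7 in TPM was 0.144 in the control and 0.0905 in the si-MALAT1 library of H460, 0.272 then 0.136 in H1299, and 0.204 then 0.0845 in A549. It was lower after si-MALAT1 in 3 of 3 cell lines, by a mean log2 change of -0.98 ± 0.30 (SD, n = 3). The exact sign-flip p was 0.25, the smallest that 3 pairs allow.

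**Figure D2:**
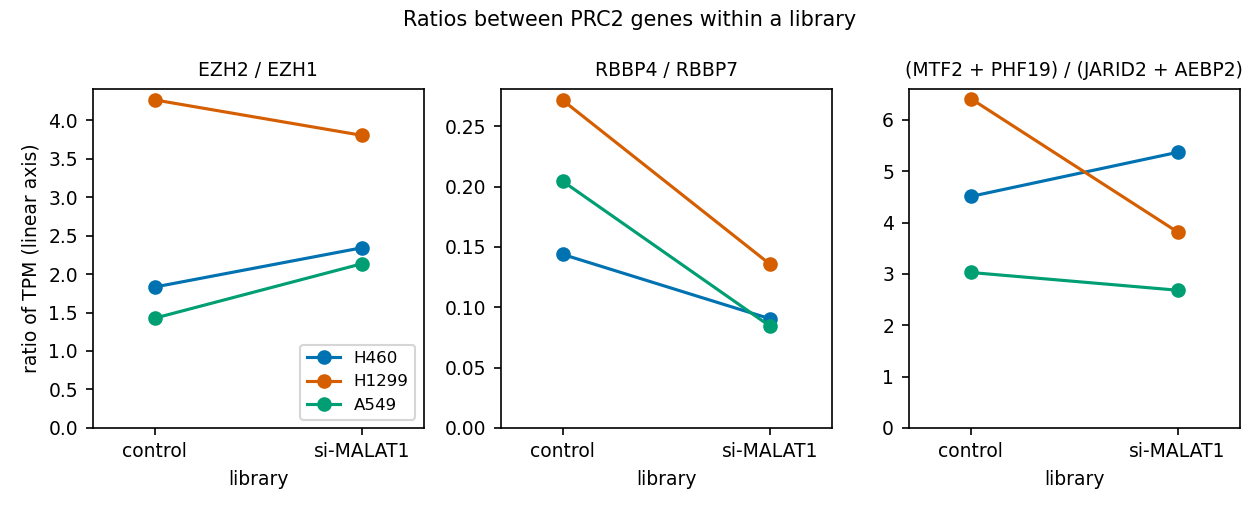
Ratios of TPM between PRC2 genes (linear axes from 0) in the control and si-MALAT1 library of each cell line: EZH2 to EZH1, RBBP4 to RBBP7, and the PRC2.1 genes (MTF2 and PHF19) to the PRC2.2 genes (JARID2 and AEBP2). The 3 lines go down in the RBBP4 to RBBP7 panel and do not share a direction in the others.

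Parts of RBBP4 and SUZ12 are shared with other annotated genes, and strand use in the counting was not stated. RBBP4 (chr1:32651208-32686211, plus strand, GRCh38) overlaps SYNC on the opposite strand over 4309 exonic bases, and 57.5% of the 50-base windows of its exons also occur in SYNC. SYNC had 125 to 563 reads per library, and its log2 fold changes were 0.57, 0.23, and -0.19, unlike those of RBBP4. The pseudogene RBBP4P1 shares 4.66% of the windows and had 18 to 55 reads. SUZ12 (chr17:31937007-32001040, plus strand) shares 4.66% of its windows with SUZ12P1, a pseudogene with 565 to 984 reads and log2 fold changes of 0.09, -0.18, and 0.05. RBBP7 shares 6.45% of its windows with TXLNG on the opposite strand, and the other 7 PRC2 genes share none with another gene.

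MTF2 (chr1:93079235-93139081, plus strand) was the PRC2.1 gene with a shared direction. It encodes a Polycomb-like protein that helps PRC2 reach unmethylated CpG islands. Its scaled counts were 1734 then 2473 in H460, 3996 then 4897 in H1299, and 2172 then 3157 in A549. This gave log2 changes of 0.51, 0.29, and 0.54, with a mean of 0.45 ± 0.13 (SD, n = 3), an edgeR adjusted p of 0.170, and a DESeq2 adjusted p of 0.0140, and the H460 value was 0.33 on the log2(TPM + 1) scale. PHF19, another Polycomb-like protein, had scaled counts of 3079 then 3772 in H460, 5986 then 5685 in H1299, and 2374 then 2508 in A549. Its log2 fold changes of 0.29, -0.07, and 0.08 gave an edgeR adjusted p of 0.797, and the H1299 value was -0.30 on the log2(TPM + 1) scale.

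JARID2 (chr6:15245975-15522042, plus strand, GRCh38) had the most positive change of the 10 genes. It encodes a cofactor that anchors PRC2 at chromatin and stimulates its activity. Its scaled counts were 831 then 1211 in H460, 1120 then 2404 in H1299, and 1355 then 2526 in A549. On the log2 scale the changes were 0.54 (0.42 to 0.67), 1.10 (1.010 to 1.196), and 0.90 (0.791 to 1.008), which are 1.46-fold, 2.15-fold, and 1.86-fold, and the H460 value was 0.25 on the log2(TPM + 1) scale and 0.33 on the log2(FPKM + 1) scale. As high or higher were 10.7%, 2.60%, and 5.58% of all genes in the 3 cell lines. The mean of 0.85 ± 0.28 (SD, n = 3) had an edgeR adjusted p of 0.0948 and a DESeq2 adjusted p of 0.000115. The edgeR adjusted p was 0.0393 without the H460 libraries, 0.171 without H1299, and 0.696 without A549. On the TPM scale JARID2 was lowest of the 10 genes in the H1299 control (4.17 TPM) and above EED and EZH1 in the H1299 si-MALAT1 library (9.39 TPM).

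AEBP2, the other PRC2.2 gene, encodes a zinc finger protein and did not follow JARID2. Its scaled counts were 1419 then 1248 in H460, 2192 then 2689 in H1299, and 1761 then 1765 in A549. On the log2 scale it was at -0.18, 0.29, and 0.00, with an edgeR adjusted p of 0.959. The ratio of summed PRC2.1 genes to summed PRC2.2 genes in TPM was 4.51 then 5.37 in H460, 6.42 then 3.81 in H1299, and 3.03 then 2.68 in A549. Its mean log2 change was -0.22 ± 0.50 (SD, n = 3), with an exact sign-flip p of 0.75. Reads per kilobase of merged exon gave lower ratios, 2.69 then 3.30 in H460, 3.83 then 2.76 in H1299, and 1.94 then 1.85 in A549, with a mean log2 change of -0.08 ± 0.38 (SD, n = 3).

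**Figure D3:**
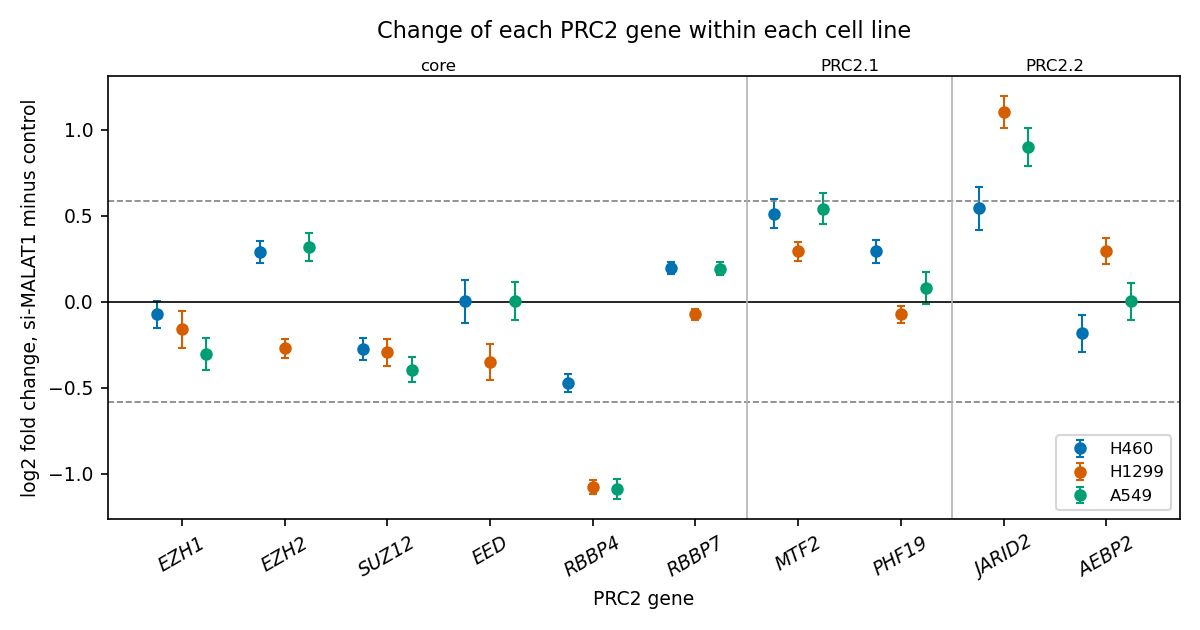
Log2 fold change of each PRC2 gene, si-MALAT1 minus control, in H460, H1299, and A549, with exact 95% intervals for counting error and dashed lines at a 1.5-fold change. RBBP4 lies below the lower line and JARID2 above the upper line in H1299 and A549, and no gene passes either line in H460.

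As a group, the 10 genes moved about as far as other genes, with median sizes of change, sign left out, of 0.28, 0.29, and 0.31 on the log2 scale in H460, H1299, and A549, against 0.25, 0.30, and 0.28 over all genes. On the log2(TPM + 1) scale the H460 values of EZH2, RBBP7, and PHF19 were also smaller, at 0.15, 0.06, and 0.15. Past 1.5-fold upward were 0 of 10 in H460 and 1 each in H1299 and A549, where the shares of all genes were 9.5%, 11.7%, and 11.5%. Past 1.5-fold downward were 0, 1, and 1, where the shares of all genes were 10.3%, 11.4%, and 11.4%. The median log2 fold changes of the 10 genes were 0.10, -0.12, and 0.04 in H460, H1299, and A549, and those of all genes were 0.02, 0.02, and 0.01. Higher in the 3 cell lines were 2 of the 10 genes and 21.4% of all genes, and lower in the 3 were 3 of the 10 and 18.8% of all genes.

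The levels of the PRC2 genes were also compared between the cell lines. These contrasts came from the same edgeR fit, in which the 2 libraries of a cell line are its control and si-MALAT1 library and not replicate cultures. Between H1299 and H460, 7 of the 10 genes were called at an adjusted p under 0.05, where 52.6% of all genes were. Between A549 and H460, 3 of the 10 were called and 38.2% of all genes, and between A549 and H1299, 4 of the 10 and 48.9%. EZH2 and RBBP7 were called in none of the contrasts, and their estimates ranged from -0.48 to 0.04 and from -0.13 to 0.09 on the log2 scale.

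EZH1 and SUZ12 were low in H1299. EZH1 was 2.25-fold lower there than in H460 (adjusted p = 0.000826) and SUZ12 was 1.81-fold lower (adjusted p = 0.00208). Against H1299, A549 had 1.97-fold more EZH1 (adjusted p = 0.00195) and 1.87-fold more SUZ12 (adjusted p = 0.00201), while A549 and H460 were not told apart in either gene (adjusted p = 0.297 and 0.807). The Polycomb-like genes were high in H1299. MTF2 was 2.12-fold higher in H1299 than in H460 and 1.68-fold lower in A549 than in H1299 (adjusted p = 0.00108 and 0.00515), and PHF19 was 1.70-fold higher and 2.38-fold lower in the same contrasts (adjusted p = 0.00556 and 0.000989). PHF19 was also 1.40-fold lower in A549 than in H460 (adjusted p = 0.0393). The sizes of these contrasts depended on the unit. In mean TPM over the libraries of a cell line, PHF19 was at 25.6 in A549 and 27.2 in H460, which are closer. SUZ12 was at 15.4 TPM in H460 and 10.7 TPM in H1299, and RBBP4 was at 13.0 TPM in H460 and 26.4 TPM in H1299.

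JARID2 was lower in H460 than in the other cell lines. It was 1.62-fold higher in H1299 and 1.83-fold higher in A549 than in H460 (adjusted p = 0.0166 and 0.0104), and H1299 and A549 were not told apart (adjusted p = 0.430). These contrasts take in the si-MALAT1 libraries, where JARID2 rose least in H460. In the controls alone its scaled counts were 831 in H460, 1120 in H1299, and 1355 in A549. AEBP2 was 1.81-fold higher in H1299 than in H460 (adjusted p = 0.00574), and A549 lay between them without passing the test against either (adjusted p = 0.0999 against H460 and 0.0571 against H1299). EED was 1.64-fold higher in A549 than in H460 (adjusted p = 0.0141), and H1299 was not told apart from H460 (1.25-fold, adjusted p = 0.128) or from A549 (adjusted p = 0.0804). RBBP4 was 1.53-fold higher in H1299 than in H460 (adjusted p = 0.0361), with an SD of its treatment change, 0.35 on the log2 scale, that was the largest of the 10 genes.

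The sequences around a 7-base word are shown because an earlier search of these same fold changes had found TGAATCA and ATGAATC in the 3′ UTRs of genes that were lower after si-MALAT1. RBBP4 and SUZ12 were the 2 of 10 PRC2 genes with such a word in a 3′ UTR of the deposited NCBI annotation, against 19.03% of 13991 tested genes. RBBP4 held TGAATCA in 2 places, as did 2.32% of those genes in at least 2. Each line gives 30 bases of the plus strand of GRCh38, with the word in capitals, and the last is the single ATGAATC in the exons of MALAT1, at base 3200 of 8779.
RBBP4 3′ UTR, chr1:32680446-32680475: gttgagaagagTGAATCAataacttgtatt
RBBP4 3′ UTR, chr1:32680834-32680863: acataaaacacTGAATCAgaggtggcacag
SUZ12 3′ UTR, chr17:31999997-32000026: ataagctgactTGAATCAttttgagcaatt
MALAT1 exon, chr11:65500926-65500955: ggcttatactcATGAATCttgtctgaagct

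RBBP4 and SUZ12, the genes with these words, had the most negative mean changes of the 10, at -0.88 and -0.32. Since the words came from the same fold changes, this gives no independent evidence and was not tested. LCOR and MBD2, named below, also hold a word and were higher in the 3 cell lines. CHAF1A and PHC3, also named below, hold one and were lower in the 3 cell lines. Over all genes, those with a word had median log2 fold changes of -0.11, -0.03, and -0.13 in H460, H1299, and A549, and those without had 0.05, 0.05, and 0.03. RBBP4 was thus far below the typical gene with a word, while SUZ12 was nearer to it. The RBBP4 3′ UTR is 6506 bases long, the longest of the 10, and that of SUZ12 is 2035. The siRNA sequence is not given in the sources used here, and its part in these changes was not tested.

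Promoters are shown because EZH2 is a known target of E2F factors, which drive genes of the cell division cycle. The bases around each start in the RefSeq promoter table (GRCh38.p14, 250 before and 50 after) were searched on both strands for TTTCCCGC, TTTGGCGC, TTTCGCGC, and TTTGCCGC, which are E2F-type words. A match was found for 6 of the 10 genes, against 6.49% of 11275 tested protein-coding genes and 3.32% of 35116 promoters. The genes with a match were EZH1, EZH2, SUZ12, MTF2, PHF19, and AEBP2. Each line gives 30 bases read on the gene's strand within the named window, with the word or its reverse complement in capitals.
EZH2, chr7:148884242-148884541, minus strand: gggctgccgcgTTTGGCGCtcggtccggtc
SUZ12, chr17:31936757-31937056, plus strand: cgacccctaatTTTCCCGCgaattcagttc
MTF2, chr1:93079033-93079332, plus strand: accggcagtccGCGGGAAAccaaaatggcg
PHF19, chr9:120877139-120877438, minus strand: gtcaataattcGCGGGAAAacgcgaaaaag

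The matches begin at bases 1 and 5 from the start for EZH2 and MTF2 and at bases -189 and -152 for SUZ12 and PHF19. The 6 genes with a match did not share a direction after si-MALAT1, since MTF2 was higher and SUZ12 and EZH1 were lower in the 3 cell lines and the others were mixed. RBBP4 and JARID2, the genes with the most negative and the most positive change, had no match in their 2 promoters each. A match to letters is not a binding site.

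Genes of dividing cells moved in opposite directions in the cell lines. Of 23 proliferation genes, H460 had 18 higher after si-MALAT1, H1299 had 0, and A549 had 8, with median log2 fold changes of 0.19, -0.75, and -0.16. Over all genes the medians were 0.02, 0.02, and 0.01. EZH2, at 0.29, -0.27, and 0.32, shared the sign of the proliferation median in H460 and H1299 but not in A549. In H1299, 16 of the 23 were past 1.5-fold downward, where 11.4% of all genes were. The edgeR test called 0 of the 23 and DESeq2 called 2, near its share of 9.33% over all genes, thymidylate synthase TYMS (adjusted p = 0.0389) and the mitotic kinase AURKA (adjusted p = 0.0431), which were lower in the 3 cell lines. The part of cell division in the PRC2 values was not tested.

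Other Polycomb genes were read beside the 9.33% that DESeq2 called over all genes. The 24 genes of PRC1, the complex that ubiquitinates histone H2A and binds the PRC2 mark, had median log2 fold changes of 0.15, 0.07, and 0.02, and edgeR called 0 of them. DESeq2 called 2 of the 24, about the share over all genes, and both were higher, SCML2 (0.86, 0.78, and 0.95, adjusted p = 2.58e-08, edgeR adjusted p = 0.0734) and the chromodomain gene CBX6 (0.44, 0.86, and 0.58, adjusted p = 0.000607, edgeR adjusted p = 0.120). SCML2, a Sex comb on midleg protein, changed by nearly the same amount as JARID2 on average and more evenly over the cell lines (mean 0.86 ± 0.09, SD, n = 3). PCGF1 (-0.37, -0.30, and -0.36) and PHC3 (-0.38, -0.15, and -0.49) were lower in the 3 cell lines and passed neither test.

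Of 5 further PRC2 accessory genes, 4 were tested and neither edgeR nor DESeq2 called any. EPOP, an elongin-binding PRC2.1 subunit, was at -0.99 in H1299 and at -0.05 and -0.03 in H460 and A549. LCOR was at 0.06, 0.68, and 0.52. Of the 6 genes for H3K27 demethylases and the PR-DUB deubiquitinase, neither tool called any, and none of the 5 with reads in all 6 libraries kept 1 direction in the 3 cell lines. Over all genes, 21.4% were higher in the 3 cell lines and 18.8% were lower.

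Of 16 genes of NuRD, SIN3, and CAF-1, the other complexes that contain RBBP4, edgeR called 0 and DESeq2 called 1, against its share of 9.33% over all genes. This was CHAF1A, the large subunit of CAF-1, with log2 fold changes of -0.22, -1.26, and -0.80 (DESeq2 adjusted p = 0.0214, edgeR adjusted p = 0.173). RBBP4 and CHAF1A were both lower in the 3 cell lines and least so in H460. CHAF1B, the other CAF-1 gene on the list, did not keep that direction, at 0.19, -0.79, and -0.20. The median changes of the 16 were 0.03, 0.03, and 0.04. MTA2, a NuRD subunit, had values of -0.16, -0.41, and -0.46 and passed neither test (DESeq2 adjusted p = 0.0707). Of the 16 genes, 4 were higher and 3 were lower in the 3 cell lines, where 21.4% and 18.8% of all genes were. Among the higher ones was MBD2, at 0.13, 0.41, and 0.19, which passed neither test (DESeq2 adjusted p = 0.291).

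Genes that PRC2 is known to repress in tumor cells were also mixed. Of 14 such genes, 8 had reads in all 6 libraries, and 3, 6, and 5 of these 8 were higher after si-MALAT1 in H460, H1299, and A549. Their median log2 fold changes were -0.07, 0.30, and 0.35, against 0.02, 0.02, and 0.01 over all genes. Of the 12 tested genes, edgeR and DESeq2 each called 0. VASH1, an angiogenesis inhibitor, was at 0.06, 0.24, and 0.36 (edgeR adjusted p = 0.558). KLF2, a transcription factor, was at -0.76, -0.17, and -0.45 (edgeR adjusted p = 0.341), and neither passed the test.

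**Figure D4:**
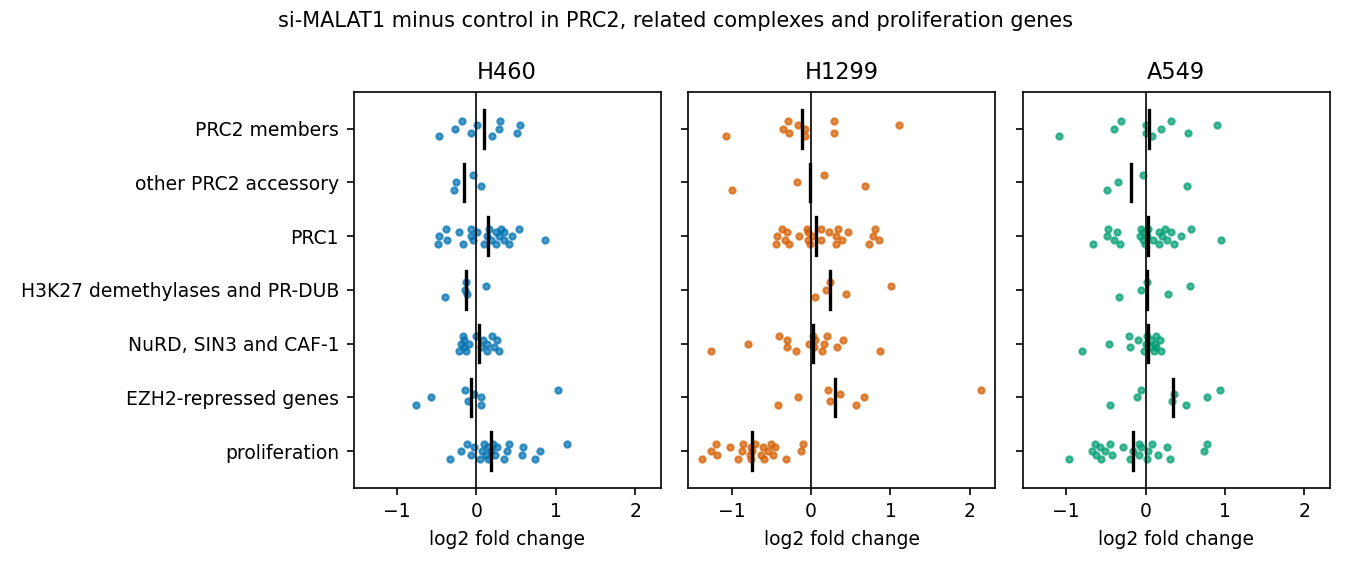
Log2 fold change, si-MALAT1 minus control, of the genes of each list with reads in all 6 libraries, in one panel per cell line, with a black bar at the median. The PRC2 genes spread around 0 in each cell line, and the proliferation genes lie to the left of 0 in H1299 (median -0.75) and mostly to the right in H460 (median 0.19).

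EZH2 was also compared with every other gene by its course over the 6 libraries. The measure was the root mean square difference of centred log2 scaled counts, over 15902 genes with a mean of at least 50 reads. The nearest were the U1 small nuclear RNA genes RNU1-1, RNU1-3, RNU1-4, and RNU1-2 (0.0386 to 0.0543) and ATP5PO, a subunit of ATP synthase (0.0685), against a median of 0.587. The U1 genes are near-identical copies that share reads, so they are not separate observations. Among the PRC2 genes RBBP7 was nearest to EZH2 (0.249, place 988) and JARID2 was farthest (0.694, place 9463). With 6 libraries of 3 cell lines, this is a description.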

How the data were processed

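Total RNA was sequenced from 6 libraries of 3 cell lines, and samples were grouped by the labels. The authors prepared stranded libraries after removal of ribosomal RNA, trimmed and aligned the reads to the human genome (the submitters' processing notes list Trimmomatic, HISAT2 2.1.0, StringTie 1.3.4b, and bcl2fastq 2.20.0), and deposited read counts per gene on an NCBI annotation of GRCh38. The deposited counts are whole numbers without normalization. The deposited FPKM and TPM were scaled by the authors for length and depth. Another 18 columns of per-sample values were not used, since they match no sample of the series.

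The 10 genes, the other lists, and the tests were chosen with earlier results of these data known. Lists came from general knowledge. At most 3 genes per direction of a list were named, those with the largest mean change, 1 sign in the 3 cell lines, and a mean of at least 50 reads. Genes called by DESeq2 were also named, as was CHAF1B beside CHAF1A. A further gene that the rule names is not reported here.

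Across cell lines, counts were fitted in edgeR 4.0.16 (glmQLFit and glmQLFTest, quasi-likelihood) with cell line as a block, TMM, filterByExpr, and Benjamini-Hochberg adjustment over all genes tested (2 residual degrees of freedom), with DESeq2 1.42.0 as an alternative. Genes whose adjusted p DESeq2 gave as missing were left out of its shares. The numbers pair the libraries because both come from the same cell line, and the deviations from the group means correlated at 0.948, 0.964, and 0.951. Within a cell line, log2(RLE-scaled count + 1) was compared over 17834 genes with reads in all 6 libraries, without a test. The script was checked on simulated counts. 3′ UTRs came from the NM_ transcripts of the deposited NCBI annotation of GRCh38 and promoters from RefSeq. The software was R 4.3.3 and Python 3.11.15 with pandas 2.3.3, numpy 2.4.6, scipy 1.17.1, and matplotlib 3.10.9.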

Additional observations from a re-analysis of the deposited data

Results flagged for a closer look

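After si-MALAT1, EZH2 moved in opposite directions in the cell lines, since H460 and A549 had log2 fold changes of 0.29 and 0.32 and H1299 had -0.27. RBBP7 did so too, at 0.20 and 0.19 against -0.07. On the log2(TPM + 1) scale its values were nearer to 0 in H460, at 0.0574, and in H1299, at -0.0125. PHF19 was at 0.29 in H460 and -0.07 in H1299, and AEBP2 was at -0.18 in H460 and 0.29 in H1299, each with an interval for counting error that left out 0. With 1 library per cell line and condition, these differences were not tested.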

How the results depend on the processing

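Of 227 values of single genes recomputed under the alternatives, 219 kept their direction. Of the 8 that did not, 3 came from leaving out 1 cell line, where the log2 fold change in the paired test ranged from -0.0069 to 0.2971 for EZH2, from -0.0123 to 0.1815 for PHF19, and from -0.0968 to 0.1365 for AEBP2. The other 5 were values near 0 under another scaling or unit: EED in H460, 0.0025, became -0.0318 with TMM, -0.1662 on log2(TPM + 1), and -0.0442 on log2(FPKM + 1), and in A549 EED (0.0040) and AEBP2 (0.0027) became -0.0168 and -0.0182 with TMM. The number of PRC2 genes called was 3 with DESeq2 in place of 0 with edgeR, and 0 to 2 when 1 cell line was left out, the 2 being RBBP4 and JARID2 without H460. Over all genes the paired test called 1 gene, against 1161 with DESeq2, 0 without the filter on low counts (MALAT1 adjusted p = 0.171), and 0 to 163 when 1 cell line was left out. MALAT1 had an adjusted p of 0.125 when H1299 was left out and 0.275 when A549 was. Without the replicate block, 0 genes were called, and neither MALAT1 nor a PRC2 gene passed. With DESeq2, the calls were 3 for the PRC2 genes, 2 for PRC1, 1 for NuRD, SIN3, and CAF-1, and 2 for the proliferation genes, each against 0 with edgeR. With a limit of 1.5 on the log2 scale in place of a fold of 1.5, the counts of PRC2 genes higher and lower in H1299 and A549 were 0 in place of 1. The contrasts between cell lines gave 7, 3, and 4 called PRC2 genes with edgeR and with DESeq2, and 6, 2, and 4 without the filter on low counts. The causes of these differences between tools and settings were not tested. With 1 library per condition and 2 residual degrees of freedom, the spread between cultures of a cell line is unknown.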
